A study of Mus musculus with 13 samples.

Results

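The genes described here are 10 members of the transforming growth factor beta (TGF-beta) superfamily and its secreted antagonists, chosen by name from the 16382 genes of the deposited tables. They are the ligands myostatin (Mstn), Gdf11, Inhba, Tgfb1, Tgfb2, Tgfb3 and Bmp4, the type II receptor Acvr2b, and the antagonists follistatin (Fst) and Fstl3. Each symbol had 1 gene column, and all 10 passed the filter on low counts that left 13142 genes for testing. They were measured by RNA-seq in C2C12 myotubes, multinucleated cells made by fusing a wild-type mouse myoblast line in low-serum medium. On day 8 of differentiation, 6 wells received 10 μM palmitoylethanolamide (PEA), an endogenous lipid amide, and 6 wells received its vehicle DMSO (CON), each for 24 h. The experiment was done 3 times with duplicate wells. Which wells shared a repeat is not given in the labels, so the p-values measure the spread between these 12 libraries, which may be partly technical. A culture of this kind also holds unfused myoblasts, and in bulk RNA fewer cells of a type and less RNA per cell cannot be told apart.

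TGF-beta superfamily ligands are made as precursors and cleaved, and the TGF-betas, myostatin and GDF11 are held latent by their propeptides until activated, while activins are not. Active dimers bring together type II and type I receptor kinases, which phosphorylate SMAD2 and SMAD3 (myostatin, GDF11, activins and TGF-betas) or SMAD1 and SMAD5 (bone morphogenetic proteins). In skeletal muscle, myostatin and activin A limit muscle mass through the activin type II receptors, TGF-beta restrains myoblast fusion and promotes matrix formation, and follistatin binds and neutralises myostatin, GDF11 and activins.

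After 24 h of PEA, 1 of the 10 members was significantly upregulated, and none was significantly downregulated (edgeR quasi-likelihood test, adjusted p below 0.05 over all genes tested). The upregulated gene was follistatin, whose fitted level was 25.7% higher in PEA than in CON (95% interval 10.3% to 43.1%). DESeq2 also called 1 of the 10. Across all genes tested edgeR called 1452 of 13142 (11.0%) and DESeq2 called 1915 of 13202 (14.5%), so 1 call among 10 genes is a share near that of all genes. At an unadjusted p below 0.05, 4 members passed (Gdf11, Fst, Fstl3 and Tgfb1), against 27.4% of all genes. The median log2 fold change over the members was 0.06, with 6 positive and 4 negative values, and it was 0.01 over all genes. No member separated CON from PEA completely, where 4.34% of all genes did.

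**Figure D1:**
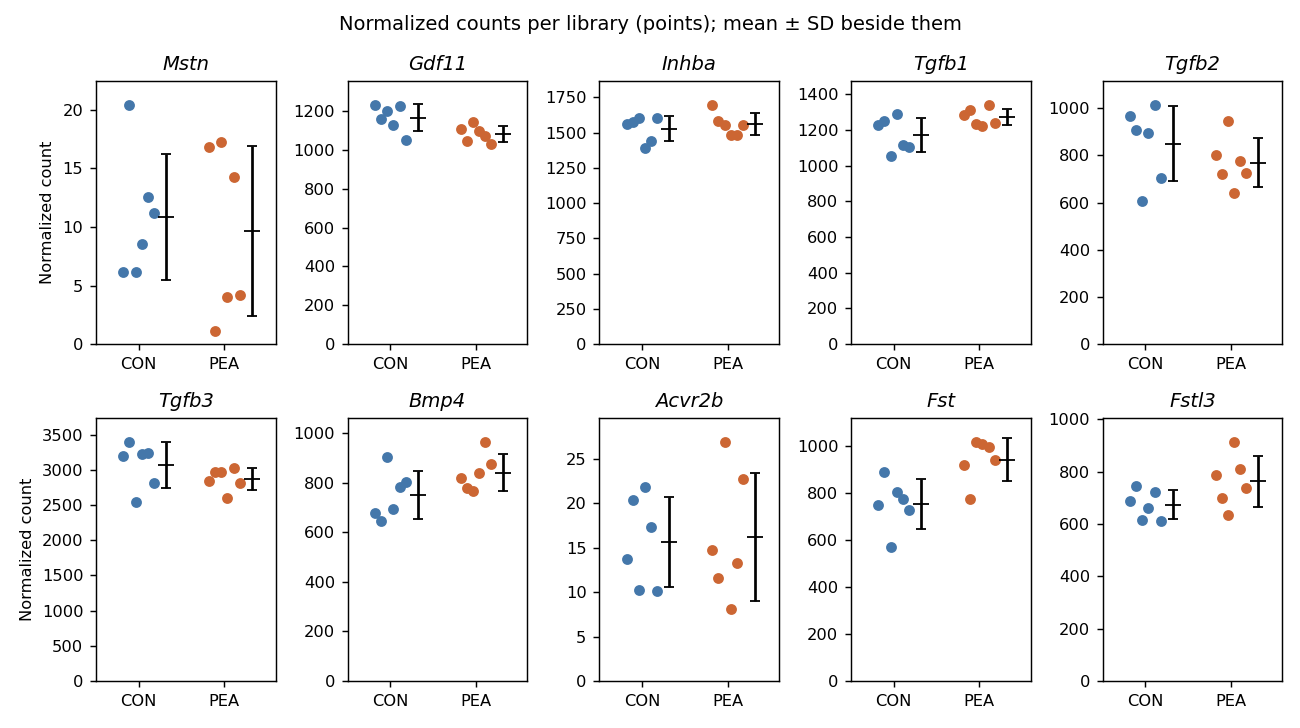
Normalized count (y axes, linear, from 0) of each of the 10 members in the 6 CON and 6 PEA libraries; points are libraries, and the bar beside them is the mean with its SD. Fst is the member with 5 PEA libraries above the highest CON library, and Mstn and Acvr2b lie below 30 in every library.

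Among the ligands that signal through activin type II receptors, myostatin, the muscle-restricted inhibitor of muscle growth, was close to the limit of detection. Normalized counts of Mstn ran from 6.13 to 20.4 in CON (median 9.85) and from 1.16 to 17.2 in PEA (median 9.24). Behind them were between 1 and 19 estimated counts per library. The PEA libraries fell into 3 below every CON library (replicates 2, 4 and 6) and 3 inside the CON range, and the groups overlapped. The log2 fold change of Mstn was -0.12 ± 0.50 (SE, n = 6 per group, edgeR adjusted p = 0.91), with a 95% interval from -1.18 to 0.95. It was -0.36 with limma-voom and -0.44 with limma on the deposited normalized counts, neither of which passed (adjusted p = 0.704 and 0.643). That interval covers both falls and rises, so the direction of any change of Mstn was not resolved.

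Gdf11, the paralog of myostatin, was expressed at a level that allowed a far tighter estimate. Its normalized counts ran from 1052 to 1231 in CON (median 1180) and from 1028 to 1144 in PEA (median 1083). All 6 PEA libraries lay below the CON median, and 2 lay below the lowest CON library, yet the groups overlapped. The log2 fold change of Gdf11 was -0.11 ± 0.05 (edgeR adjusted p = 0.172), which did not pass the threshold. Per kilobase of exon, the mean Gdf11 level in CON was 69.0 times that of Mstn. For 8 of the 10 members, all but Mstn and Tgfb1, part of the exons overlaps an annotated gene on the opposite strand. Whether counting used strand is not given in the sources used here, so reads of such pairs may not be told apart. Of Gdf11's 4222 exonic bases, 448 overlap exons of Sarnp (mean normalized count 179.2 in CON).

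Inhba encodes the beta A subunit, of which 2 copies form activin A. Normalized counts of Inhba ran from 1394 to 1604 in CON (median 1565) and from 1479 to 1695 in PEA (median 1555). The groups overlapped, with PEA replicate 1 alone above the highest CON library. The log2 fold change was 0.03 ± 0.05 (edgeR adjusted p = 0.752), with a 95% interval from -0.08 to 0.13. Inhbb, the beta B subunit, named here as its counterpart after the values were seen, stood 4.49 times higher than Inhba per kilobase of exon in CON and 4.00 times higher in PEA.

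None of the TGF-beta isoforms passed the test. Over the last 300 coding bases of their annotated transcripts, Tgfb1 and Tgfb2 were 70.3% identical, Tgfb1 and Tgfb3 73.3%, and Tgfb2 and Tgfb3 72.0%. Tgfb1, the isoform best known for matrix induction, ran from 1053 to 1288 normalized counts in CON (median 1173) and from 1223 to 1340 in PEA (median 1263). All 6 PEA libraries were above the CON median of Tgfb1 and 2 were above its highest CON library. Its log2 fold change was 0.12 ± 0.05 (edgeR adjusted p = 0.173). Tgfb2 had the largest coefficient of variation of the isoforms within CON (18.7%, against 10.5% for Tgfb3 and 8.02% for Tgfb1), with counts from 606.8 to 1014 (median 902.0), against 641.9 to 947.5 in PEA (median 751.2). Every PEA library lay within the CON range, and the log2 fold change was -0.14 ± 0.11 (edgeR adjusted p = 0.459). Tgfb3 was the most abundant isoform per kilobase of exon, with normalized counts from 2547 to 3401 in CON (median 3207) and from 2607 to 3021 in PEA (median 2902). All 6 PEA libraries were below the CON median but none was below the lowest CON library, and the log2 fold change was -0.09 ± 0.06 (edgeR adjusted p = 0.364). Of the 5213 exonic bases of Tgfb3, 179 overlap exons of Ttll5 (mean normalized count 683.5 in CON) on the opposite strand. CON replicate 3 held the lowest count of the 12 libraries for Tgfb1, Tgfb2, Tgfb3 and also Fst, and no other library was lowest for more than 1 member.

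Bmp4, a ligand of the SMAD1 and SMAD5 branch, ran from 645.0 to 904.0 normalized counts in CON (median 739.3) and from 765.3 to 965.5 in PEA (median 828.5). All 6 PEA libraries exceeded the CON median, but only 1 exceeded CON replicate 3, in which Bmp4 was highest among CON. The log2 fold change of Bmp4 was 0.17 ± 0.08 (edgeR adjusted p = 0.19). Of its 5242 exonic bases, 1178 overlap the opposite-strand gene Gm15222 (mean normalized count 13.8 in CON).

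Acvr2b, the activin type IIB receptor and the main receptor for myostatin, was, like Mstn, a low-count gene. Its normalized counts ran from 10.2 to 21.9 in CON (median 15.5) and from 8.07 to 26.9 in PEA (median 14.0), on 8 to 36 estimated counts per library. The groups overlapped over most of their range, and the log2 fold change was 0.09 ± 0.33 (edgeR adjusted p = 0.894, 95% interval -0.60 to 0.78). Acvr2a, the other activin type II receptor, was 30.3 times higher than Acvr2b per kilobase of exon in CON and 27.4 times higher in PEA.

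Follistatin was the member that passed the adjusted threshold. Normalized counts of Fst were 568.7, 724.9, 746.2, 775.1, 803.8 and 887.6 in the CON libraries and 772.3, 917.0, 940.3, 994.0, 1006 and 1018 in the PEA libraries. The 5 highest libraries were all PEA, and the overlap of the groups came from PEA replicate 2 (772.3), which lay inside the CON range. The mean was 751.1 ± 105.8 in CON and 941.2 ± 91.6 in PEA (SD, n = 6 per group), and the log2 fold change was 0.33 ± 0.09 (edgeR adjusted p = 0.0267). This call held in all 8 alternative fits that kept the 12 libraries, with adjusted p from 0.00811 to 0.0398. With 1 library left out it held in 7 of 12 fits. It was lost without CON replicate 6 (adjusted p = 0.0579) and without PEA replicates 3, 4, 5 or 6 (0.0514, 0.0597, 0.0638 and 0.0552), while the log2 fold change stayed between 0.26 and 0.38. Opposite-strand noncoding genes not analysed here overlap 108 and 115 of the 4718 exonic bases of Fst.

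Fstl3, a follistatin-like antagonist of myostatin and activins, ran from 611.3 to 743.9 normalized counts in CON (median 675.6) and from 632.7 to 914.4 in PEA (median 762.2). In PEA, 3 libraries exceeded the highest CON library and the other 3 lay inside the CON range. The log2 fold change was 0.18 ± 0.08 (edgeR adjusted p = 0.145). Among its 2455 exonic bases, 1157 overlap exons of Prss57 on the opposite strand, a gene whose mean normalized count in CON was 2.91.

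**Figure D2:**
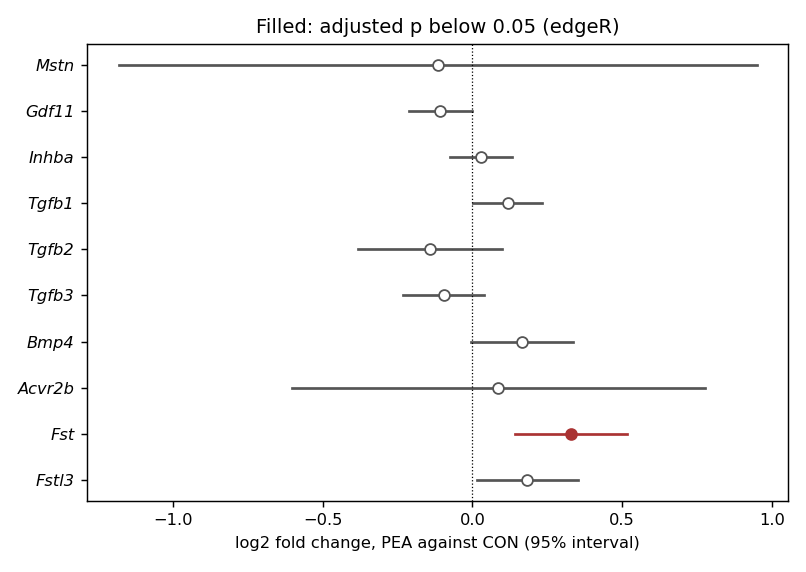
Log2 fold change of each member in PEA against CON (x axis; 0 is no difference) with its 95% interval from the edgeR fit, 6 libraries per group. Fst at 0.33 is the filled point, past the adjusted threshold; the intervals of Mstn and Acvr2b are the widest, reaching from -1.18 to 0.95 and from -0.60 to 0.78.

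The level of the antagonist was then set against that of its ligands within each library, a ratio in which depth cancels. The ratio of Fst to Inhba estimated counts ran from 0.354 to 0.577 in CON (median 0.509) and from 0.489 to 0.677 in PEA (median 0.630). In PEA, 4 of the 6 libraries exceeded the highest CON ratio. The mean log2 ratio was 0.30 higher in PEA (two-sided exact permutation test over 924 assignments, p = 0.0368), and after adjustment over the 2 ratios tested it did not pass the threshold (adjusted p = 0.0736). The ratio of Fst to Mstn ran from 43.5 to 121.8 in CON (median 78.5) and from 54.6 to 667.0 in PEA (median 146.4), and the log2 difference of 0.92 did not pass (exact permutation p = 0.177, adjusted p = 0.177). Without PEA replicate 2 this difference was 0.47 (exact permutation p = 0.355). The highest value, in PEA replicate 2, rested on 1 estimated count of Mstn, and its exact 95% binomial interval, which covers counting error only, ran from 119.3 to 26384.

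Fst was also set beside markers of dividing cells and of myotubes in each library. The summed normalized count of 8 such markers (Mki67, Top2a, Ccnb1, Cdk1, Birc5, Ccna2, Aurkb and Bub1) was between 2779 and 7144 in CON and between 7390 and 8821 in PEA, without overlap, and edgeR called 8 of the 8 higher. CON replicate 3 had the lowest sum in the series (2779) and the lowest Fst, CON replicate 2 had the highest of each within CON (7144 for the sum), and PEA replicate 2 had the lowest of each within PEA (7390 for the sum). The highest PEA library differed, being replicate 3 for Fst and replicate 5 for the sum. Over 11 myotube markers the sum was between 80376 and 127145 in CON and between 81346 and 97632 in PEA, and edgeR called 4 of the 11 lower and none higher. CON replicate 3 had the lowest myotube sum of the series as well (80376). The highest was in CON replicate 5 (127145), with 124127 in CON replicate 2. Within PEA the lowest myotube sum was in replicate 4 (81346) and the highest in replicate 1 (97632). Over 5 myoblast markers (Pax7, Myf5, Myod1, Cdh15 and Sdc4) the sum was between 14488.5 and 16076.8 in CON. It was between 12926.3 and 14450.7 in PEA, without overlap. Of the 5, edgeR called 1 lower (Cdh15, adjusted p = 0.0444, 20% against 11.0% of all genes) and none higher. The log2 fold change was negative in 4 and positive in 1. The part of these shifts in the Fst result was not tested. The myotube markers were abundant in all 12 libraries. Markers of other cell types were summed in the same way. The 4 fibroblast markers with a gene column summed to between 550.2 and 921.8 in CON and between 736.3 and 980.9 in PEA. Most of this was Pdgfra (529.6 to 886.5 in CON, 717.4 to 947.5 in PEA, edgeR adjusted p = 0.106), which was named after its values were seen. Lum, the other tested marker of the list, had medians of 31.9 (CON) and 19.5 (PEA), a log2 fold change of -0.77 ± 0.28 (edgeR adjusted p = 0.0851), and Thy1 and Col15a1 stayed below 10 normalized counts in every library. The 4 macrophage markers summed to between 64.6 and 144.6 over all libraries, with Ptprc below 10 in each. The 2 adipocyte markers summed to between 11.9 and 46.3, with Plin1 below 10 in each, and the 4 endothelial markers to between 8.23 and 28.5, with Pecam1, Cdh5 and Kdr below 10 in each. The part of the fibroblast markers in the results was not tested.

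**Figure D3:**
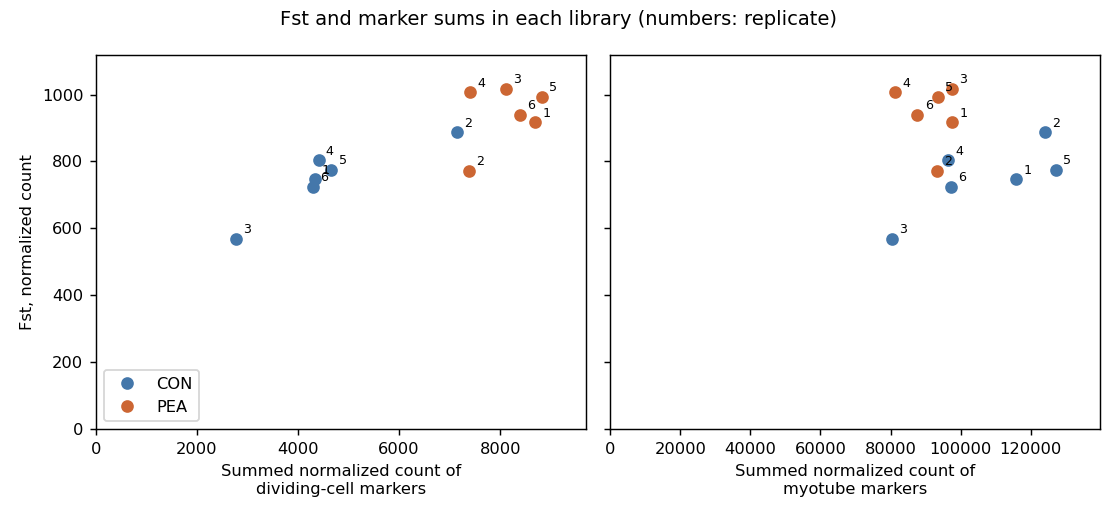
Normalized count of Fst (y axis) in each library against the summed normalized count of 8 dividing-cell markers (left x axis) and of 11 myotube markers (right x axis), axes from 0, with the replicate number beside each point. On the left all 6 PEA libraries lie at or above 7390 and all CON libraries at or below 7144; on the right the groups overlap.

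Compared per kilobase of exon, the members spanned a wide range of levels. In CON the mean normalized count per kilobase was 588.8 ± 61.7 for Tgfb3, 276.1 ± 16.3 for Gdf11, 274.3 ± 22.2 for Fstl3, 230.8 ± 18.5 for Tgfb1, 214.9 ± 12.7 for Inhba, 159.2 ± 22.4 for Fst, 143.4 ± 18.4 for Bmp4, 135.7 ± 25.4 for Tgfb2, 4.00 ± 1.98 for Mstn and 1.40 ± 0.45 for Acvr2b (SD, n = 6). Within CON, libraries of neighbours in this order did not overlap between Tgfb3 and Gdf11, between Inhba and Fst, between Tgfb2 and Mstn, and between Mstn and Acvr2b. The libraries of the other neighbours overlapped, and differences in level between members were not tested. In PEA the mean of Fst was 199.5 ± 19.4 and that of Inhba 219.1 ± 11.0 per kilobase, and their libraries overlapped. The libraries of Mstn and Acvr2b also overlapped in PEA, while those of Tgfb1 and Inhba did not. Fst stood at 0.580 times Fstl3 in CON. With the length of the longest transcript in place of all exons, Tgfb1 moved from rank 4 to rank 2 and Fst from rank 6 to rank 5, Gdf11 moved down from rank 2 to rank 4 and Inhba from rank 5 to rank 6, and Tgfb3, Fstl3, Bmp4, Tgfb2, Mstn and Acvr2b kept their ranks. By that length Fst (253.8 per kilobase) stood above Inhba (235.8) in CON and their libraries overlapped, so neither the order nor the separation of this pair held.

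**Figure D4:**
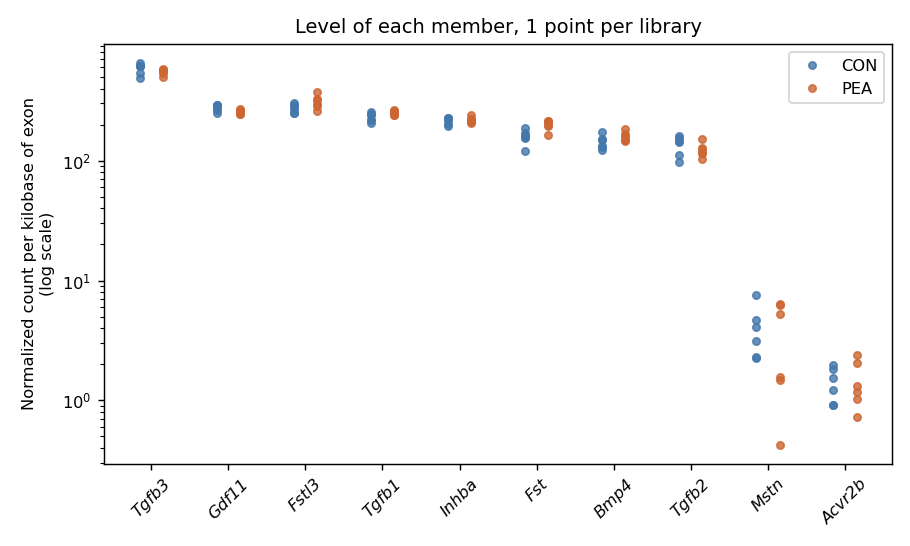
Normalized count per kilobase of exon (y axis, log scale) of the 10 members, ordered by their mean in CON, with 1 point per library for CON and PEA. 8 members lie between 97.0 and 652.4 and the remaining pair, Mstn and Acvr2b, lie below 10 in every library.

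Beyond the members, 120 other genes of the pathway were listed by role. Of these, 99 had a gene column, 21 were not analysed here, and 83 passed the filter. PEA upregulated 9 and downregulated 3 of the 83 (14.5%, against 11.0% of all genes), the median log2 fold change was 0.02, and 26 of the 83 had an unadjusted p below 0.05, as did 27.4% of all genes. The balance of directions varied, with 8 higher and 6 lower in DESeq2, 10 and 6 with the replicate block, and 11 and 8 without CON replicate 2. The groups did not overlap in 1 of the 83 genes (Fstl1), against 4.34% of all genes. The same marker shifts stand beside all of these counts, and their part was not tested. The lists were chosen with earlier results of these data known, so the shares called in them are not independent of the data.

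None of the 6 other ligands tested was called by edgeR or by DESeq2, and 1 (Inhbb) had an unadjusted edgeR p below 0.05. Among 14 receptors and co-receptors tested, none was called higher and 1 was called lower (7.14%, against 11.0% of all genes). Tgfbr2, the type II receptor that binds TGF-beta, had a median of 6372 normalized counts in CON against 6455 in PEA, with a log2 fold change of 0.03 ± 0.05 (edgeR adjusted p = 0.671). Tgfbr1, its type I partner, had medians of 587.3 and 640.5 (0.01 ± 0.09, edgeR adjusted p = 0.946), and Tgfbr2 stood 7.58 times higher than Tgfbr1 per kilobase of exon in CON. Acvr2a had medians of 430.7 and 395.8 (-0.09 ± 0.08, adjusted p = 0.476), and Acvr1b, the type I activin receptor, had 330.0 and 344.2 (0.06 ± 0.09, adjusted p = 0.705). The co-receptor called was Hjv (hemojuvelin, a bone morphogenetic protein co-receptor of muscle and liver). Its counts ran from 1789 to 2550 in CON and from 1527 to 1905 in PEA, and it fell by 0.32 on the log2 scale (SE 0.09, edgeR adjusted p = 0.0249). In DESeq2 and without PEA replicate 1 the count was 2, and without CON replicate 2 it was 3, all lower. The Hjv call was lost in 4 of 12 fits with 1 library left out (adjusted p up to 0.0646).

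Of 15 tested secreted antagonists and latency proteins, 5 were called higher and 1 lower (40%, against 11.0% of all genes), with a median log2 fold change of 0.09. As the list was chosen with earlier results of these data known, this share is not an independent test of it. The count of 6 was 5 or 6 in the alternatives that kept all libraries at the same threshold, and lay between 2 and 7 with 1 library left out. It was 2 without PEA replicate 5, 7 without CON replicate 2, and 3 without CON replicates 4 or 6 or PEA replicates 2, 3 or 4. Latent TGF-beta binding proteins, which tether latent complexes in the matrix, made up 3 of the 5, and the fourth of the family, Ltbp3, did not pass (0.15 ± 0.07, edgeR adjusted p = 0.166). Ltbp4 ran from 410.3 to 590.3 normalized counts in CON and from 586.4 to 795.2 in PEA, with 5 PEA libraries above every CON library, and rose by 0.50 ± 0.09 on the log2 scale (edgeR adjusted p = 0.00223). Ltbp1 rose from a median of 2429 to 2891 (0.22 ± 0.05, adjusted p = 0.00831), and Ltbp2, the family member that does not bind latent TGF-beta, rose from 3094 to 3841 (0.22 ± 0.07, adjusted p = 0.048, and 0.0512 with median-of-ratios scaling and 0.053 with no filter, where the call was lost). The remaining calls in this direction were proteoglycans that bind TGF-beta. Decorin (Dcn) rose from a median of 2632 to 3422 (0.48 ± 0.15, edgeR adjusted p = 0.0439, and 0.0512 in DESeq2, where the call was lost), and biglycan (Bgn) rose from 35510 to 42393 (0.28 ± 0.08, adjusted p = 0.0415). Fstl1, a secreted glycoprotein with a follistatin-like domain, was the gene of the list that fell. Its counts ran from 20232 to 22481 in CON and from 18371 to 19682 in PEA, and all 6 PEA libraries lay below the lowest CON library (-0.16 ± 0.04, adjusted p = 0.019). With 1 library left out, the calls of Ltbp2, Dcn and Bgn were each lost in 9 of 12 fits (adjusted p up to 0.105, 0.0973 and 0.0946) and that of Fstl1 in 1 (0.0501, without PEA replicate 5), while those of Ltbp4 and Ltbp1 held in all 12. Within CON, replicate 3 was lowest and replicate 2 highest for Ltbp4, Ltbp2, Dcn and Bgn, as for the sum of dividing-cell markers (2779 and 7144). This order did not hold for the other called genes of the list. Ltbp1 was lowest in CON replicate 5 and highest in CON replicate 4, and Fstl1 was lowest in CON replicate 2 and highest in CON replicate 4. The sum of myotube markers was also lowest in CON replicate 3 (80376), and it was highest in CON replicate 5 (127145). The part of either marker set was not tested.

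None of the 9 tested proteases and activators of latent ligands was called by edgeR or by DESeq2, and 0 of the 9 had an unadjusted edgeR p below 0.05. Of 18 SMAD proteins and regulators, Smurf2, a ubiquitin ligase of SMADs and their receptors, was the 1 called (5.56%, against 11.0% of all genes), and 2 were called without CON replicate 4 (both higher) or CON replicate 3 (1 higher and 1 lower). Smurf2 rose from a median of 980.9 to 1109 (0.19 ± 0.05, edgeR adjusted p = 0.0261), with 5 PEA libraries above every CON library, and its call was lost in 4 of 12 fits with 1 library left out (adjusted p up to 0.066). Smad2 had medians of 943.6 and 955.9 (0.02 ± 0.04, adjusted p = 0.815), and Smad3, its partner, had 1939 and 1731 (-0.16 ± 0.07, adjusted p = 0.11, and 0.0255 without CON replicate 3). Smad4, the shared SMAD, had 1117 and 1085 (0.02 ± 0.06, adjusted p = 0.842). The inhibitory Smad7 had 452.0 and 429.2 (-0.12 ± 0.07, adjusted p = 0.33).

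Target genes were read as counts of the 2 SMAD branches. Among 16 tested targets of SMAD2 and SMAD3, 3 were called higher and none lower (18.8%, against 11.0% of all genes), with a median log2 fold change of 0.14. At an unadjusted p below 0.05 there were 8 of the 16 (27.4% of all genes), 6 higher and 2 lower. Those that did not pass after adjustment were Klf10, Fn1 and Skil among the higher and Tagln and Ccn2 among the lower, named after their values were seen. The count was 4 higher and 2 lower with the replicate block, 3 and 1 in DESeq2, 5 and 1 without CON replicate 2, and 2 and 0 without CON replicate 6 or PEA replicates 5 or 6. The 3 called were the AP-1 subunit Junb (median 4423 in CON and 5820 in PEA, 0.41 ± 0.08, edgeR adjusted p = 0.0063) and the zinc-finger repressors Snai1 (898.2 and 1054, 0.26 ± 0.07, adjusted p = 0.0183) and Snai2 (727.6 and 832.3, 0.25 ± 0.07, adjusted p = 0.0285). In each of the 3 genes, 5 of the 6 PEA libraries lay above every CON library. All 3 also respond to other signals. Junb and Snai1 held their calls in all 12 fits with 1 library left out, and Snai2 lost its call in 4 (adjusted p up to 0.0773). Among 11 tested targets of SMAD1 and SMAD5, 1 was called (9.09%), and the median log2 fold change was -0.07. The count was 2, both lower, in DESeq2, with the replicate block, without CON replicate 2 and without PEA replicate 1. The gene called was Id3, an inhibitor of myogenic helix-loop-helix factors, which ran from 896.2 to 1331 in CON and from 737.8 to 982.1 in PEA and fell by 0.40 on the log2 scale (SE 0.10, edgeR adjusted p = 0.0141). Of the same family, Id1 had medians of 621.4 and 567.8 (-0.10 ± 0.09, adjusted p = 0.489). Id2, named after its values were seen, had 571.3 and 421.8, with all 6 PEA libraries below the CON median (-0.39 ± 0.14, adjusted p = 0.0734).

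**Figure D5:**
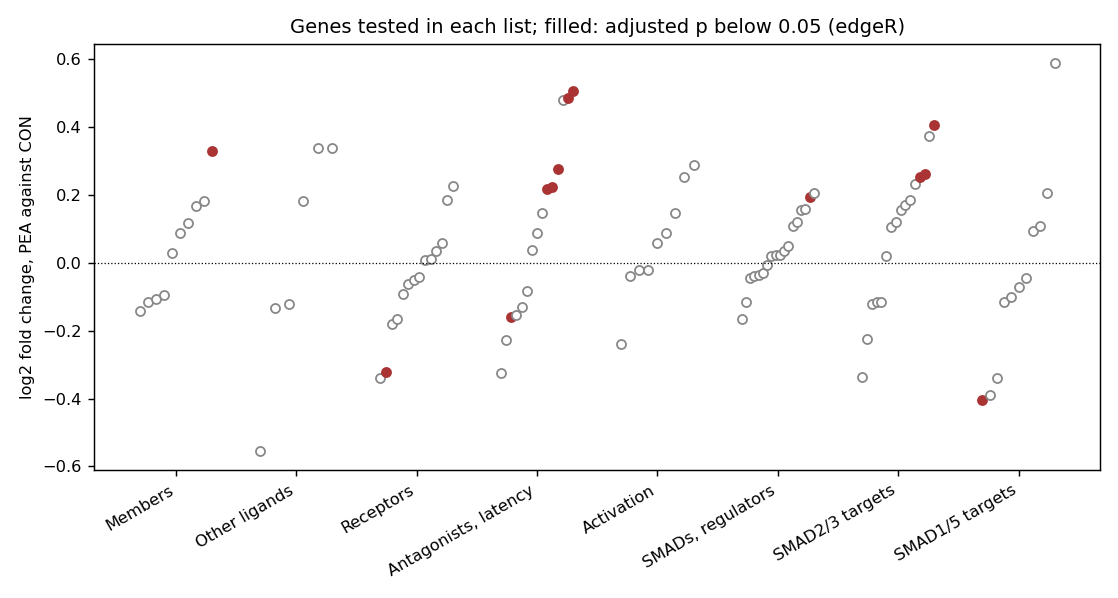
Log2 fold change in PEA against CON (y axis) of every tested gene of the members and of 7 lists of the pathway (x axis), sorted within each list; filled points passed the adjusted threshold in the edgeR fit. Filled points number 1 among the 10 members, 6 among the 15 antagonists and latency proteins, and 3 among the 16 targets of SMAD2 and SMAD3; genes in several lists appear in each.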

How the data were processed

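RNA-seq libraries were poly(A)-enriched. Per the labels and the study's methods, the authors aligned reads with STAR 4.4.1d to mm39 and quantified Ensembl genes in Partek Flow. The deposited tables hold estimated counts per gene and a signal, the same counts divided by 1 DESeq2 median-ratio factor per library (normalized counts). The labels list 13 entries; PEA replicate 2 and its top-up run share 1 row and entered as 1 library. Totals lay between 12354845 and 50397444 estimated counts (median 18420606), which limits precision for genes of few counts; CON replicate 1 was 2.25 times deeper than the next library.

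Estimated counts were rounded and tested over all genes with edgeR 4.0.16 (R 4.3.3; TMM, default filter on low counts, quasi-likelihood test, Benjamini-Hochberg, threshold 0.05). Intervals are 95%. For the ratios a two-sided exact permutation test was run in Python 3.11.15 (scipy 1.17.1). Symbols, exon lengths and coding bases came from GENCODE vM39 on GRCm39. Alternatives used DESeq2 1.42.0, limma 3.58.1 (pseudocount 1 on log2 of the deposited signal), other filters, scalings and libraries left out. The fits were tested on simulated data. Named genes are the 10 members, 9 receptors, SMADs and targets fixed by name (1 more is not reported here), and up to 6 called genes per pathway list, with Inhbb, Prss57, Sarnp, Ttll5, Gm15222, Ltbp3, Id2, Klf10, Fn1, Skil, Tagln, Ccn2, Pdgfra and Lum named outside that rule. Members and lists were chosen with earlier results of these data known.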

Additional observations from a re-analysis of the deposited data

Results flagged for a closer look

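The extremes of 66 groups of 6 libraries were compared with their nearest neighbour (31 named genes and the 2 ratios, in CON and in PEA), and 1 group held a library that stood apart by Dixon's criterion at 95%. Chance flags about 1 in 20 groups. The ratio of Fst to Mstn was 667.0 in PEA replicate 2, where the other PEA libraries lay between 54.6 and 249.2. In that library 1 estimated count of Mstn was present.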

How the results depend on the processing

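The call of 1 member kept its value under DESeq2, limma-voom, median-of-ratios scaling, both other filters, unrounded counts, limma on the deposited signal and the replicate block, was 0 at an adjusted p below 0.01, and ranged from 0 to 1 with 1 library left out. Calls among the other pathway genes (12) numbered 3 at an adjusted p below 0.01 and from 6 to 19 with 1 library left out (6 without PEA replicate 5, 7 without CON replicate 6 and 19 without CON replicate 2). Calls among all genes (1452) numbered 405 at an adjusted p below 0.01, and from 778 to 2203 with 1 library left out (2203 and 864 without CON replicates 2 and 6, and 906, 963, 794 and 778 without PEA replicates 2, 4, 5 and 6). The log2 difference of the Fst to Inhba ratio ranged from 0.21 to 0.36 and passed without PEA replicate 2 (0.36, exact permutation adjusted p = 0.026), and that of the Fst to Mstn ratio ranged from 0.47 (without PEA replicate 2) to 1.19 (without PEA replicate 1), never passing.

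Replicate numbers did not pair the libraries (correlations of -0.083 to 0.065, none of 6 over 0.1). With the replicate block, 1 member, 16 other pathway genes and 1570 genes in all were called, Fst had an adjusted p of 0.0398, and the log2 differences of the ratios of Fst to Inhba and to Mstn (0.30 and 0.92) had exact permutation p-values of 0.0938 and 0.312.

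Of 618 single-gene alternatives, 556 kept direction and side of the threshold, 48 lost it, 1 gained it and 13 turned direction. All of the 13 were uncalled genes with 1 library left out: Mstn (range -0.36 to 0.18; 0.18, 0.10, 0.04 and 0.05 without CON 2, PEA 2, PEA 4 and PEA 6), Acvr2b (range -0.11 to 0.22; -0.0039, -0.0069, -0.11 and -0.04 without CON 3, CON 6, PEA 3 and PEA 6), Tgfbr1 (range -0.037 to 0.097; -0.037, -0.010 and -0.013 without CON 2, CON 5 and CON 6) and Smad4 (range -0.020 to 0.047; -0.020 and -0.0046 without CON 2 and PEA 2). Bgn kept its call only without CON 2, CON 3 or CON 5 (adjusted p up to 0.0946), Dcn only without CON 2, CON 3 or PEA 1 (up to 0.0973, and 0.0512 in DESeq2), and Ltbp2 only without CON 1, CON 2 or PEA 6 (up to 0.105, and 0.0512 with median-of-ratios scaling and 0.053 with no filter). Hjv lost it without CON 1, CON 5, PEA 4 or PEA 6 (up to 0.0646), Smurf2 without CON 6, PEA 2, PEA 3 or PEA 5 (up to 0.066), Snai2 without CON 3, CON 6, PEA 5 or PEA 6 (up to 0.0773) and Fstl1 without PEA 5 (0.0501). Smad3 passed without CON 3 (0.0255). With at least 10 counts in every library, Mstn and Acvr2b could not be fitted.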
